A study of Mus musculus with 12 samples.

Results

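The genes followed here mark the secretory branch of the colon epithelium: the fate factors Atoh1, Gfi1 and Spdef, the enteroendocrine factors Neurog3, Neurod1 and Insm1, the enteroendocrine granule proteins Chga and Chgb, and the tuft cell kinase Dclk1. They were chosen by symbol, 9 genes in all, and 8 of them were listed among the 12098 genes of the series. Spdef was not analysed here, since none of the 12 libraries read here lists it. The measure is promoter CpG methylation from reduced representation bisulfite sequencing, in which DNA is cut with MspI at CCGG, size-selected and treated with bisulfite so that unmethylated cytosines read as thymine. The DNA came from colon epithelial cells of C57BL/6 mice. In 3 induced mice the de novo DNA methyltransferase Dnmt3b was switched on with 0.5 g/l doxycycline in the drinking water for 3 months, changed every 3 days, and 3 control mice drank regular water. The labels state neither age nor sex, nor the promoter that drives Dnmt3b, nor whether control mice carry the transgene, and the drug and the induction cannot be told apart. From every mouse came 2 libraries, a short fraction of MspI fragments of 40 to 120 nt and a long fraction of 120 to 220 nt, which makes 12. The levels come without read counts, so their depth and counting error are unknown. With 3 mice a group, an exact test of 1 gene cannot go below p = 0.10, and the tests given are from limma, fitted over all genes.

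Intestinal stem cells give rise to absorptive and secretory daughters. Low Notch signalling lets Atoh1 act and opens the secretory programme, which then divides into mucus-making goblet cells and hormone-making enteroendocrine cells. Tuft cells, rare chemosensory cells, are grouped with these lineages here. Neurog3 commits cells to the hormone-producing enteroendocrine fate, and Neurod1 and Insm1 act after it. CpG-rich promoters of such lineage genes are normally free of methylation in healthy tissue, and methylation at a promoter is often found together with silence of the gene, although no expression was measured here.

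Printed first are the RefSeq promoter windows (GRCm38.p6, 250 bases before to 50 after the gene start) of 4 of the genes, to show the CpG-rich sequence around their starts: Atoh1, which stayed low, and Neurog3, Chga and Chgb, which did not. All 4 lie on the plus strand, at chr6:64728875-64729174 for Atoh1, chr10:62132840-62133139 for Neurog3, chr12:102554691-102554990 for Chga and chr2:132781392-132781691 for Chgb. Sequences run 5′ to 3′ and the capitals mark CCGG, the site MspI cuts.
Atoh1: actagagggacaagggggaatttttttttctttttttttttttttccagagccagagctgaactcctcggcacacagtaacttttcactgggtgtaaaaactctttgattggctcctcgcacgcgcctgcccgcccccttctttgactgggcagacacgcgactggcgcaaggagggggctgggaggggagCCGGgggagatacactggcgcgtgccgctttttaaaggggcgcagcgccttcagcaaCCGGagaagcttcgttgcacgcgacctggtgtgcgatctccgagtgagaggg
Neurog3: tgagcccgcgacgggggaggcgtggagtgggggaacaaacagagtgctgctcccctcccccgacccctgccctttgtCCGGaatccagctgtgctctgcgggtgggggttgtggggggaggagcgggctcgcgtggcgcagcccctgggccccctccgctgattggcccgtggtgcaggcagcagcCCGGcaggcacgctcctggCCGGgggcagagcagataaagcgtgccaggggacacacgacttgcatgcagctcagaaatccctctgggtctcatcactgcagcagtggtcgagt
Chga: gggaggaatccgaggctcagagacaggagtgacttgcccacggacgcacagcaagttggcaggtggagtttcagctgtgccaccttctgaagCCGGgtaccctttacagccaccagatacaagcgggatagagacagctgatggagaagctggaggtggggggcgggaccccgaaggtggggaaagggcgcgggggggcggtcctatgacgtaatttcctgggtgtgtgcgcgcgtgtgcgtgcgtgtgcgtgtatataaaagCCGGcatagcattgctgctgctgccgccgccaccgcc
Chgb: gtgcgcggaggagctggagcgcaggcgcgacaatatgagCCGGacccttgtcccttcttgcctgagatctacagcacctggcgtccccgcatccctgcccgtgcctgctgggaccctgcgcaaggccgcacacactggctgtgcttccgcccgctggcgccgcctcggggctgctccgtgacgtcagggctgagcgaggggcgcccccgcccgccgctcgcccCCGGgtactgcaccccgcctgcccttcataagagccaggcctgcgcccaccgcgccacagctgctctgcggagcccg

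These windows are rich in CpG. They held 20 CpGs for Atoh1, 19 for Neurog3, 21 for Chga and 31 for Chgb, where the median of 32851 RefSeq windows was 7. Fewer CpGs than in these were found in 73.5%, 71.9%, 75.2% and 89.4% of all windows, in that order. Neurod1 had 26 CpGs, the 2 windows of Gfi1 16 and 10, and the 2 windows of Dclk1 5 and 6. Atoh1, with little methylation in either group, and Neurog3, with a large gain, had nearly the same number of CpGs in these windows. Whether CpG number bears on the gain was not tested. The neighbouring CCGG sites lay 57 bases apart in the Atoh1 window, 109 and 19 apart in that of Neurog3, 171 apart in that of Chga, 184 in that of Chgb, 210 in the second window of Gfi1 and 222 in that of Neurod1. The labels do not state the promoter window that the authors averaged over, so the CpGs behind a level may lie partly outside these windows. The letters TGACGT, the core of the cAMP response element and itself holding a CpG, were searched on both strands and were found in the windows of Chga, 44 bases before the start, and Chgb, 72 and 70 bases before it, the last 2 being the overlapping strands of 1 palindrome. Among the other genes Spdef alone had them, and 7.51% of all windows did. Insm1 has no entry in the table.

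**Figure D1:**
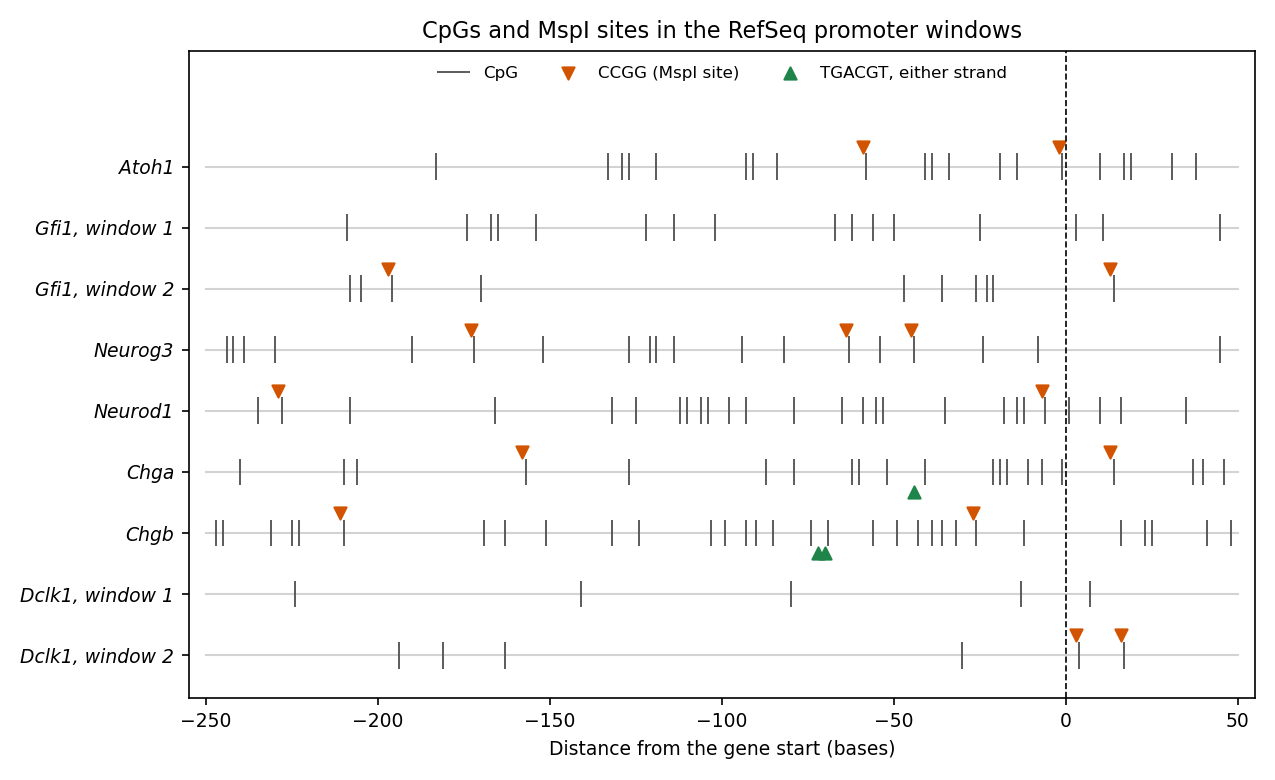
CpGs (ticks), CCGG sites (triangles pointing down) and TGACGT on either strand (triangles pointing up) in the RefSeq promoter windows of 7 genes, by distance in bases from the gene start (dashed line). Atoh1 with 20 CpGs and Neurog3 with 19 are similar in CpG number, while the 2 windows of Dclk1 hold 5 and 6.

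Induced mice had far higher methylation than control mice at Gfi1, Neurog3, Insm1, Chga, Chgb and Dclk1, with mean levels between 30.7% and 80.3% against 13.6% or less, while Atoh1 stayed under 12% in every library. Among genes listed in all 6 libraries of a fraction, 3 of 4 rose in the short fraction (Neurog3, Insm1, Chga) and 6 of 7 in the long fraction (those 3 with Gfi1, Chgb and Dclk1), at limma adjusted p under 0.05. Over all genes tested, 27.6% rose in the short fraction and 23.2% in the long fraction. No gene of the set fell (limma), also at an unadjusted p under 0.05, and over all genes 0.0798% and 0.0163% did. With each library centred on its median, 2844 genes were called higher and 2368 lower in the short and 1628 and 1938 in the long fraction, against 2765 and 8, and 1421 and 1, without centring; the genes of the set kept their direction. The median change of the tested genes was 40.8 percentage points among short and 56.5 among long fragments, where the median over all 10027 and 6127 genes tested was 0.500 and 0.943. With 1 library left out the count stayed at 3 in the short fraction. In the long fraction it was 4 without control mouse 3 and 7 without induced mouse 1, and over all genes the count of rises there dropped to 900, 882 and 895 without control mouse 1, 2 and 3, against 1421 with all. A level is a mean over all cells of the preparation, so a part of the cells fully methylated and all of them partly methylated cannot be told apart.

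**Figure D2:**
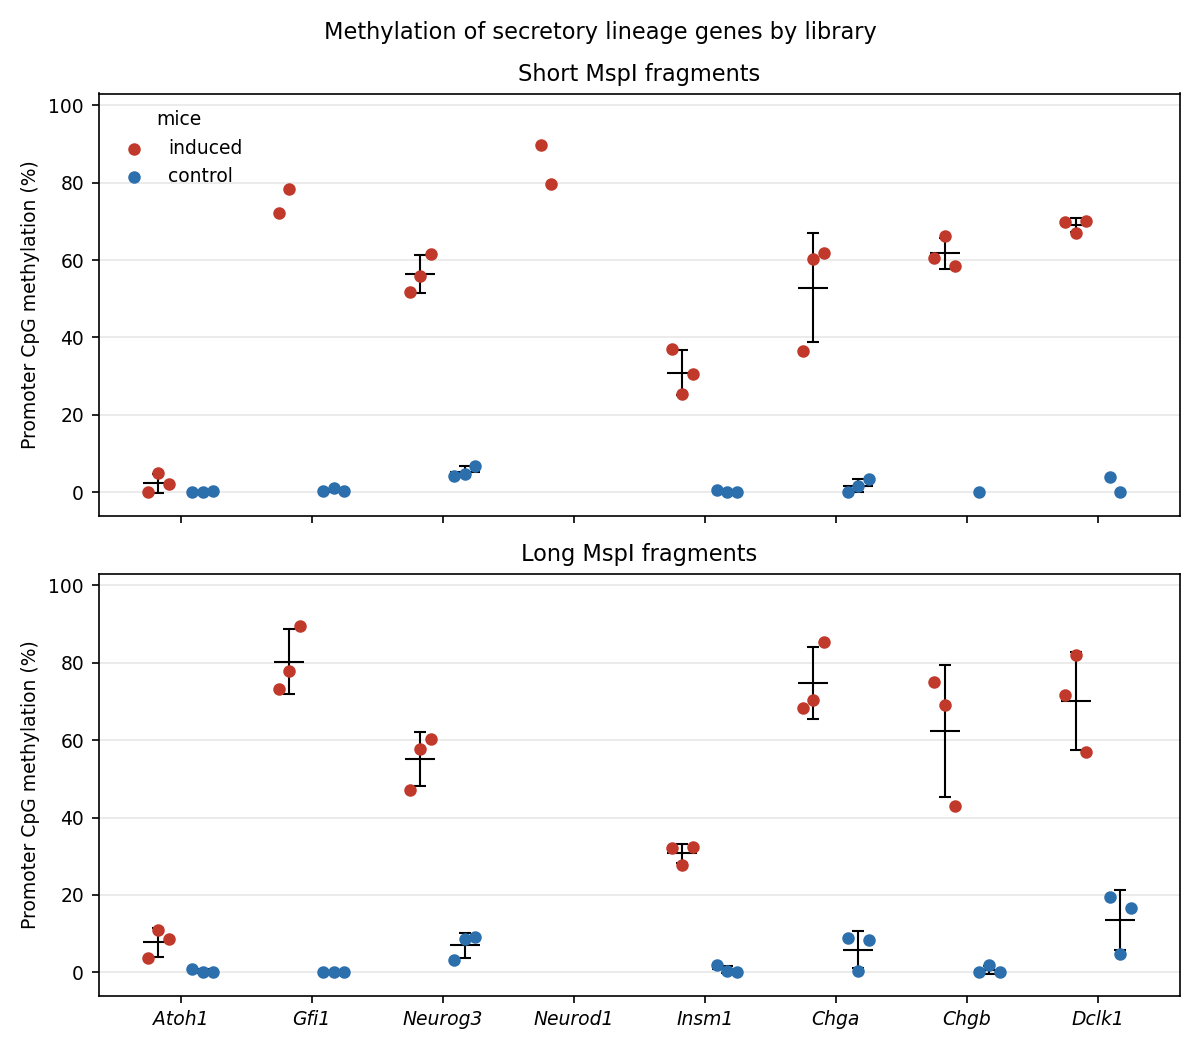
Promoter CpG methylation (%) of the 8 listed genes in each library, short fragments above and long fragments below, with induced mice (red) left of control mice (blue). Points are mice and bars the mean ± SD where all 3 mice of a group are listed. Every gene but Atoh1 has induced points above 25%, and all control points lie under 20%.

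Atoh1 (Gene ID 11921), the basic helix-loop-helix factor required for goblet and enteroendocrine cells, was the exception. In the short fraction its level was 0%, 4.91% and 2.05% in induced mice 1, 2 and 3, against 0.05%, 0% and 0.44% in control mice. The groups overlapped, since induced mouse 1 was at 0%, where 39.5% of all genes had every induced mouse above every control mouse, and the change was 2.16 points (limma adjusted p = 0.390, 95% interval -1.43 to 5.75). Without induced mouse 1 the change was 3.32 and without induced mouse 2 it was 0.862 points, neither of which passed. In the long fraction it was 3.72%, 11.0% and 8.57% in induced mice, against 0.94%, 0% and 0.07% in control mice. Every induced mouse exceeded every control mouse here, which held for 38.2% of genes in that fraction. The change of 7.42 points did not pass (limma adjusted p = 0.0741), and 66.5% of genes tested changed by less. The call depended on the fit. In 1 limma fit over both fractions, which called 29.5% of genes higher in short and 31.3% in long fragments, the long-fragment change of Atoh1 passed (adjusted p = 0.00873) and the short-fragment one did not (adjusted p = 0.484). The long-fragment change passed also on the arcsine scale (adjusted p = 0.0227), after median centring (adjusted p = 0.0399) and without induced mouse 1 (adjusted p = 0.00848).

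Gfi1 (14581), a zinc-finger repressor that acts after Atoh1 and helps secretory progenitors choose between goblet and enteroendocrine fates, had the largest change of the set. Among long fragments it was at 73.3%, 78.0% and 89.5% in induced mice 1, 2 and 3, against 0% in each control mouse. It rose by 80.3 ± 4.59 points (SE, limma adjusted p = 0.00107), and 99.5% of the genes tested changed by less. In the short fraction it was listed in induced mice 1 and 3 alone, at 72.2% and 78.3%, against 0.22%, 1.02% and 0.27% in control mice. With 2 libraries against 3 it was absent from the fit on complete genes. In the fit on 10582 genes listed in at least 2 libraries of each group, which called 26.9% of genes higher, it rose by 74.7 ± 2.14 points (SE, limma adjusted p = 0.000411). Control mice were near 0% in both fractions.

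Neurog3 (11925), the factor that starts the enteroendocrine programme, had similar levels in both fractions. Among short fragments it was at 51.7%, 55.8% and 61.5% in induced mice, against 4.31%, 4.79% and 6.89% in control mice. Among long fragments it was at 47.1%, 57.7% and 60.3% in induced mice, against 3.16%, 8.62% and 9.09% in control mice. It rose by 51.0 ± 2.81 points in the short and 48.1 ± 4.23 points in the long fraction (SE, limma adjusted p = 0.000487 and 0.00272). Induced mouse 1 was lowest and induced mouse 3 highest among induced mice in both fractions.

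Insm1 (53626), a zinc-finger transcriptional repressor that acts in endocrine differentiation, gained less than the other genes that rose. Its levels were 37.1%, 25.3% and 30.4% in induced mice against 0.60%, 0.15% and 0.02% in control mice among short fragments. Among long fragments they were 32.0%, 27.9% and 32.3% in induced mice against 1.93%, 0.34% and 0.18% in control mice. The groups did not come near each other in either fraction. The rise was 30.7 ± 3.20 points in the short and 29.9 ± 1.47 points in the long fraction (SE, limma adjusted p = 0.00254 and 0.000802), and the 95% interval of the long-fragment rise, 26.0 to 33.8 points, lay below those of Neurog3 (36.8 to 59.4), Chga (53.6 to 84.1) and Gfi1 (68.0 to 92.5). No test was run between genes.

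Neurod1 (18012), the helix-loop-helix factor downstream of Neurog3, was listed in 2 libraries only, the short-fragment libraries of induced mice 2 and 3, at 89.6% and 79.7%. With no control value it could not be compared.

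Chga (12652), the chromogranin A of enteroendocrine granules, was at 36.5%, 60.1% and 61.8% in induced mice 1, 2 and 3 in the short fraction, against 0%, 1.58% and 3.37% in control mice. Among long fragments it was at 68.4%, 70.5% and 85.3% in induced mice, against 8.90%, 0.33% and 8.33% in control mice. Induced mouse 1 stood apart among short fragments. The rise was 51.2 ± 7.74 points in the short and 68.9 ± 5.70 points in the long fraction (SE, limma adjusted p = 0.00875 and 0.00226).

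Chgb (12653), the related chromogranin B, was at 75.0%, 69.2% and 43.0% in induced mice in the long fraction, against 0.08%, 1.96% and 0% in control mice. Its order among induced mice was the reverse of that of Chga: mouse 3 was lowest for Chgb and highest for Chga. The rise was 61.7 ± 9.38 points (SE, limma adjusted p = 0.0125). With control mouse 1, 2 or 3 left out it no longer passed (adjusted p = 0.0610, 0.0593 and 0.0609), while the change stayed between 61.4 and 62.3 points. In the short fraction Chgb was at 60.6%, 66.2% and 58.4% in induced mice and was listed in control mouse 1 alone, at 0%, so no test was made.

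Dclk1 (13175), a microtubule-associated kinase that marks tuft cells, had 2 RefSeq promoters in the files with identical values in every library. Among long fragments it was at 71.7%, 81.9% and 56.8% in induced mice, against 19.4%, 4.81% and 16.6% in control mice. Control mice 1 and 3 had the highest control values of the set here, and the groups still lay apart. It rose by 56.5 ± 8.13 points (SE, limma adjusted p = 0.0107), with adjusted p = 0.0502 and a change of 58.0 points without control mouse 3. In the short fraction it was at 69.9%, 67.0% and 70.2% in induced mice, against 4% and 0% in control mice 1 and 2. In the fit on genes listed in at least 2 libraries of each group it rose by 67.0 ± 1.83 points (SE, limma adjusted p = 0.000376).

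**Figure D3:**
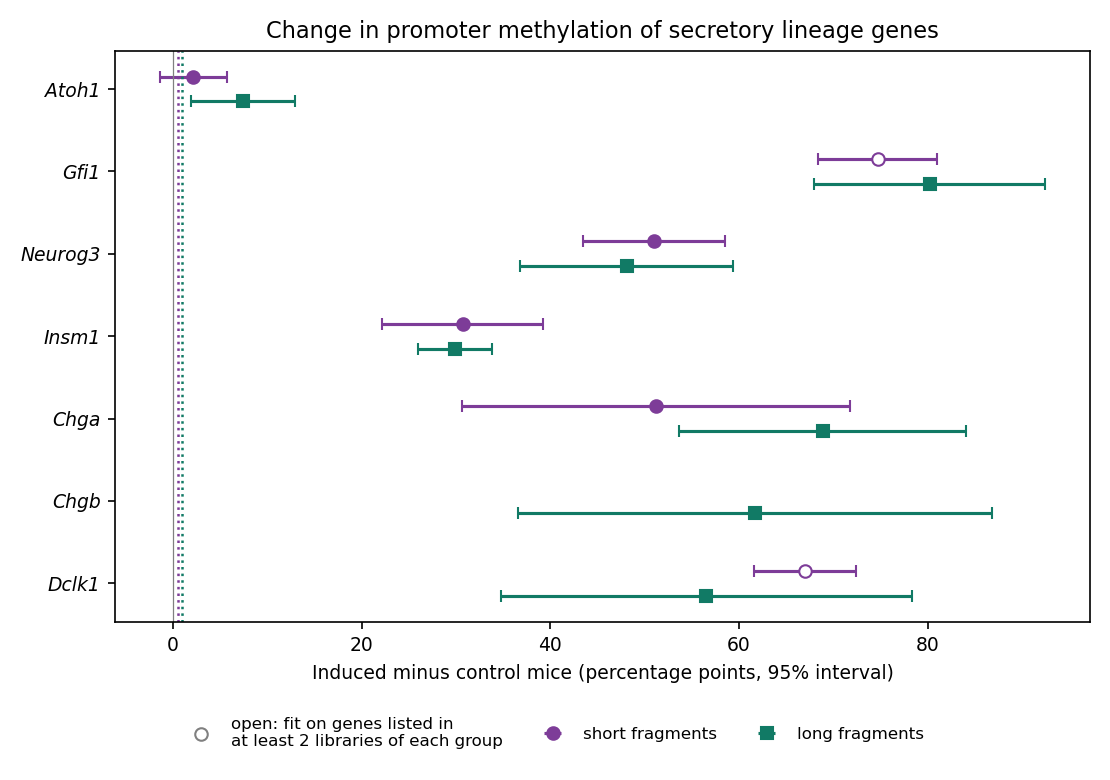
Change in promoter methylation (induced minus control mice, percentage points) with its 95% interval from limma, for short (circles) and long fragments (squares); open circles are from the fit on genes listed in at least 2 libraries of each group, and the dotted lines are the medians of all genes tested, 0.500 and 0.943 points. Atoh1 lies at 2.16 and 7.42 points, Insm1 near 30 and the others between 48.1 and 80.3.

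Short and long fragments could be set against each other in a single fit for the 4 genes listed in all 12 libraries, with mouse as a block. The change in long minus the change in short fragments was 17.7 points for Chga (95% interval -3.56 to 39.0, limma adjusted p = 0.468), 5.27 for Atoh1 (-0.0911 to 10.6, adjusted p = 0.356), -2.90 for Neurog3 (-14.0 to 8.19, adjusted p = 0.818) and -0.777 for Insm1 (-8.58 to 7.02, adjusted p = 0.935). None passed, where 4.71% of 5309 genes did. Without induced mouse 1 the difference of Atoh1 was 6.13 points and passed (adjusted p = 0.0353). Within induced mice Chga was higher among long fragments by 31.9, 10.3 and 23.5 points in mice 1, 2 and 3, and Atoh1 by 3.72, 6.08 and 6.52 points. Dclk1, by contrast, differed by 1.77, 14.9 and -13.3 points and Chgb by 14.4, 3.02 and -15.4 points, with no common direction.

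Other genes of the same lineages were followed in lists written from general knowledge. Of 14 further enteroendocrine transcription factors tested in the short fraction 9 rose, and of 12 in the long fraction 8 rose, with median changes of 26.7 and 22.6 points. Over all genes tested 27.6% and 23.2% rose, with median changes of 0.500 and 0.943 points. Nkx2-2, which directs endocrine subtypes, was at 66.1% ± 8.90 in induced and 2.94% ± 1.56 in control mice in the short and at 59.1% ± 10.7 and 3.19% ± 2.86 in the long fraction (SD, n = 3 each, limma adjusted p = 0.00106 and 0.00475). Pax6, an endocrine and eye factor, was at 59.9% ± 16.7 in induced and 2.27% ± 1.41 in control mice among short fragments (SD, n = 3 each, limma adjusted p = 0.0103, and 0.0504 without control mouse 3). Hmx3, a homeobox factor, rose by 76.1 points in the short fraction (limma adjusted p = 0.000622). Its long-fragment change of 57.1 points, and that of Pax6 (59.7 points), did not pass with any 1 control mouse left out, and that of Hmx3 also without induced mouse 1 or 2. Hmx2 rose in both fractions, by 48.9 and 53.7 points (limma adjusted p = 0.000584 and 0.00322). Bhlha15, a factor of secretory cells, was high in both groups, at 90.7% in induced and 84.9% in control mice in the short fraction, and did not pass. Foxa1, Rfx3 and Sox4 averaged under 1% in both groups in the short fraction. Among long fragments Sox4 was at 19.2% in induced and 16.4% in control mice and did not pass. The counts fell with 1 library left out, to 6 in the short fraction without control mouse 3 and in the long fraction to 2 with any 1 control mouse left out and to 4 without induced mouse 1.

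Of 30 genes for hormones and the secretory granule 19 were listed in any library. In the short fraction 13 of the 14 tested rose and none fell, with a median change of 50.4 points, and in the long fraction 5 of 6, with a median of 51.3 points. The share of all genes tested that rose was 27.6% and 23.2%, with median changes of 0.500 and 0.943 points. Pyy, the gene of the colon hormone peptide YY, was at 74.9% ± 15.6 in induced and 1.56% ± 1.92 in control mice, and Gal, the galanin gene, at 77.7% ± 2.85 and 1.70% ± 1.70 (SD, n = 3 each, short fraction, limma adjusted p = 0.00362 and 8.99e-05). Snap25 and Slc18a2, of vesicle fusion and monoamine loading, rose by 65.8 and 66.2 points (limma adjusted p = 0.000170 and 0.00348). The hormone genes Sst and Cck rose by 40.3 and 51.6 points. Pam, the amidating enzyme used in many tissues, was the one that did not pass, at 0.0333% in induced and 0.0200% in control mice. Among long fragments Uchl1 rose by 72.8 points (limma adjusted p = 0.00112), while the rises of Cpe (58.5 points), Cplx2 (53.8) and Pcsk2 (48.8) did not pass with any 1 control mouse left out, and each failed without at least 1 of the induced mice too. With 1 control mouse left out, whichever it was, the list's count there was 1, and without induced mouse 2 or 3 it was 3 or 2. Among genes listed in part of the long libraries, Sct, the secretin gene, was at 0% to 0.120% in induced and 0% in control mice.

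Tuft cell genes were divided. In the short fraction 3 of 6 rose and in the long fraction 2 of 5, with median changes of 35.8 and 43.1 points. Among all genes tested 27.6% and 23.2% rose, with medians of 0.500 and 0.943 points. Ptgs1, the cyclooxygenase of tuft cells, rose in both, by 70.7 and 71.1 points (limma adjusted p = 0.000183 and 0.00104), and Chat, which makes acetylcholine, by 57.7 points in the short fraction (adjusted p = 0.000513). Gng13, a taste-type G protein subunit, was at 67.8% ± 3.98 in induced and 24.7% ± 4.07 in control mice among long fragments (SD, n = 3 each, limma adjusted p = 0.00173). Pou2f3, the master factor of tuft cells, was at 11.7%, 27.9% and 39.0% in induced mice against 0%, 5.51% and 1.41% in control mice in the short fraction and did not pass (limma adjusted p = 0.0971), but passed on the arcsine scale (adjusted p = 0.0411) and without induced mouse 1 (31.1 points, adjusted p = 0.0138). Ltc4s and Il17rb stayed under 1% on average in both groups and fractions.

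Few goblet and deep crypt genes were tested. Of 8 in the short fraction 1 rose and of 3 in the long fraction none (limma, with 2 and 1 at an unadjusted p under 0.05), with median changes of 0.132 and 0.353 points, where over all genes 27.6% and 23.2% rose. With 1 library left out the short-fraction count was 0 to 3, the most without induced mouse 1, and the long-fraction count 1 without that mouse, in 1 fit over both fractions and on the arcsine scale. The factors Klf4, Foxa3 and Creb3l1 and the secretory stress factor Xbp1 had short-fraction means under 1% in both groups. Cd24a alone passed, at 0.630% ± 0.190 in induced and 0.0533% ± 0.0503 in control mice (SD, n = 3 each, limma adjusted p = 0.0224), but did not pass once any control mouse, or induced mouse 2, was left out, nor after median centring (adjusted p = 0.409). Muc1, a membrane mucin, was at 32.4%, 78.1% and 79.7% in induced mice against 13.5%, 5.47% and 1.74% in control mice in the short fraction and did not pass (adjusted p = 0.0563). It passed on the arcsine scale (adjusted p = 0.0292), after median centring (adjusted p = 0.0325) and without induced mouse 1 (72.0 points, adjusted p = 0.00154). In the long fraction Muc1 was listed in 3 induced mice, at 47.1% to 59.2%, and in 2 control mice, at 9.96% to 10.1%. It was therefore outside the long-fraction count. Sox9, a factor of the crypt base, was at 0.103% in induced and 0.583% in control mice in the short fraction and at 2.10% and 0.0100% in the long, where it did not pass (adjusted p = 0.0759). Its long-fragment change did pass in 1 fit over both fractions (adjusted p = 0.00911), on the arcsine scale (adjusted p = 0.00881) and without induced mouse 1 (adjusted p = 0.0211). Of the 28 genes in the goblet list 11 were listed in any library, and the rest were not analysed here.

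Of the Notch genes that decide between absorptive and secretory fates, 4 of 20 rose in the short and 2 of 13 in the long fraction, with median changes of 1.38 and 0.357 points. Over all genes 27.6% and 23.2% rose, with medians of 0.500 and 0.943 points. Jag2, a Notch ligand, was at 41.7% ± 7.92 in induced and 0.370% ± 0.262 in control mice, and Cbfa2t3, a corepressor, at 38.7% ± 6.85 and 2.77% ± 0.193 (SD, n = 3 each, short fraction, limma adjusted p = 0.00254 and 0.00248). Hes5 rose to 13.9% in induced mice, against 0.247% in control mice, and Maml1 to 9.97%, against 0.447% (limma adjusted p = 0.00166 and 0.00538). Hes1, the Notch target that represses Atoh1, was at 0.143% in induced and 0.0367% in control mice in the short fraction. In long fragments Hes5 was at 19.6% in induced and 0% in control mice and Dll1, a Notch ligand of secretory progenitors, at 9.34% and 0.0333%, and neither passed (adjusted p = 0.0743 and 0.0643). Both passed in 1 fit over both fractions (adjusted p = 0.00400 and 0.00996), on the arcsine scale, after median centring and without induced mouse 3, and Dll1 also without induced mouse 2. The long-fragment rises of Jag2 (53.4 points) and Cbfa2t3 (40.0 points) were each lost when control mouse 1 or 3 was left out, that of Jag2 also without control mouse 2 or induced mouse 1 and that of Cbfa2t3 without induced mouse 2. The list's long-fraction count of 2 was 0 without control mouse 1 or 3, 1 without control mouse 2 or induced mouse 1 and 4 without induced mouse 3, and it was 4 in 1 fit over both fractions, 4 after median centring and 5 on the arcsine scale.

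The colonocyte list, which marks the labelled epithelium, also holds general epithelial genes such as Epcam, Cdh1 and Krt18. From this list 1 of 7 rose in the short and none of 9 in the long fraction (limma, 1 at an unadjusted p under 0.05), with medians of -0.0500 and 0.240 points. Of all genes tested 27.6% and 23.2% rose, with medians of 0.500 and 0.943 points. Epcam, Cdx2 and Klf5 had means under 1% in both groups and fractions. The transporter gene Slc9a3 was the one that rose, to 34.3% ± 10.1 in induced mice, against 1.17% ± 1.16 in control mice among short fragments (SD, n = 3 each, limma adjusted p = 0.0124), though not with any control mouse or induced mouse 3 left out (adjusted p = 0.0512 to 0.0581). Cdh1, the epithelial cadherin gene, was at 0.217% in induced and 1.59% in control mice in short and at 4.31% and 2.06% in long fragments, and did not pass, except for long fragments without control mouse 3 (3.74 points, adjusted p = 0.0302). Krt18, an epithelial keratin, was at 30.2% in induced and 22.8% in control mice in long fragments and did not pass. Slc9a3 was at 22.6% in induced and 0.0833% in control mice in long fragments. Every induced mouse exceeded every control mouse there, but the change did not pass (limma adjusted p = 0.157). The list's long-fraction count was 1 in 1 fit over both fractions, on the arcsine scale and without control mouse 3 or induced mouse 1. Car4 and Krt19 were listed in part of the long libraries and so were outside the count. Car4 was at 42.2% to 57.1% in 2 induced and 0% to 6.17% in 2 control mice. Krt19 stayed under 1% in 3 induced and 2 control mice. Stromal, muscle and endothelial genes moved with the enteroendocrine ones: 6 of 8 rose among short and 3 of 3 among long fragments, against 27.6% and 23.2% of all genes. Their medians were 54.8 and 62.2 points. Myh11 of smooth muscle rose by 66.3 and Kdr of endothelium by 63.4 points in the short fraction (limma adjusted p = 0.000300 and 0.000268), and the smooth muscle genes Tagln and Cnn1 by 60.1 and 65.9 points. Pdgfra, Des and Vim rose by 66.5, 62.2 and 35.7 points in the long fraction. In the short fraction Pdgfra was at 2.38%, 6.60% and 31.5% in induced and 0.120%, 0% and 1.30% in control mice. It did not pass there (limma adjusted p = 0.417). Eng, of endothelium, was high in both groups in the short fraction, at 91.1% in induced and 85.1% in control mice, and did not pass. The mean level of the list per mouse was 56.9% to 68.7% in induced and 15.5% to 19.0% in control mice in the short fraction, and 35.8% to 71.9% and 1.10% to 2.25% in the long. With 1 library left out the counts went down to 4 in the short fraction, and to 0 in the long fraction when any control mouse or induced mouse 2 was missing. Of the list's tested genes Pdgfra alone was at 0% in every mouse of a group, the control mice of the long fraction. Of 18 immune markers only Lck was tested, at 0.113% in induced and 0.370% in control mice in the short fraction. The part of other cell types in these levels was not tested.

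**Figure D4:**
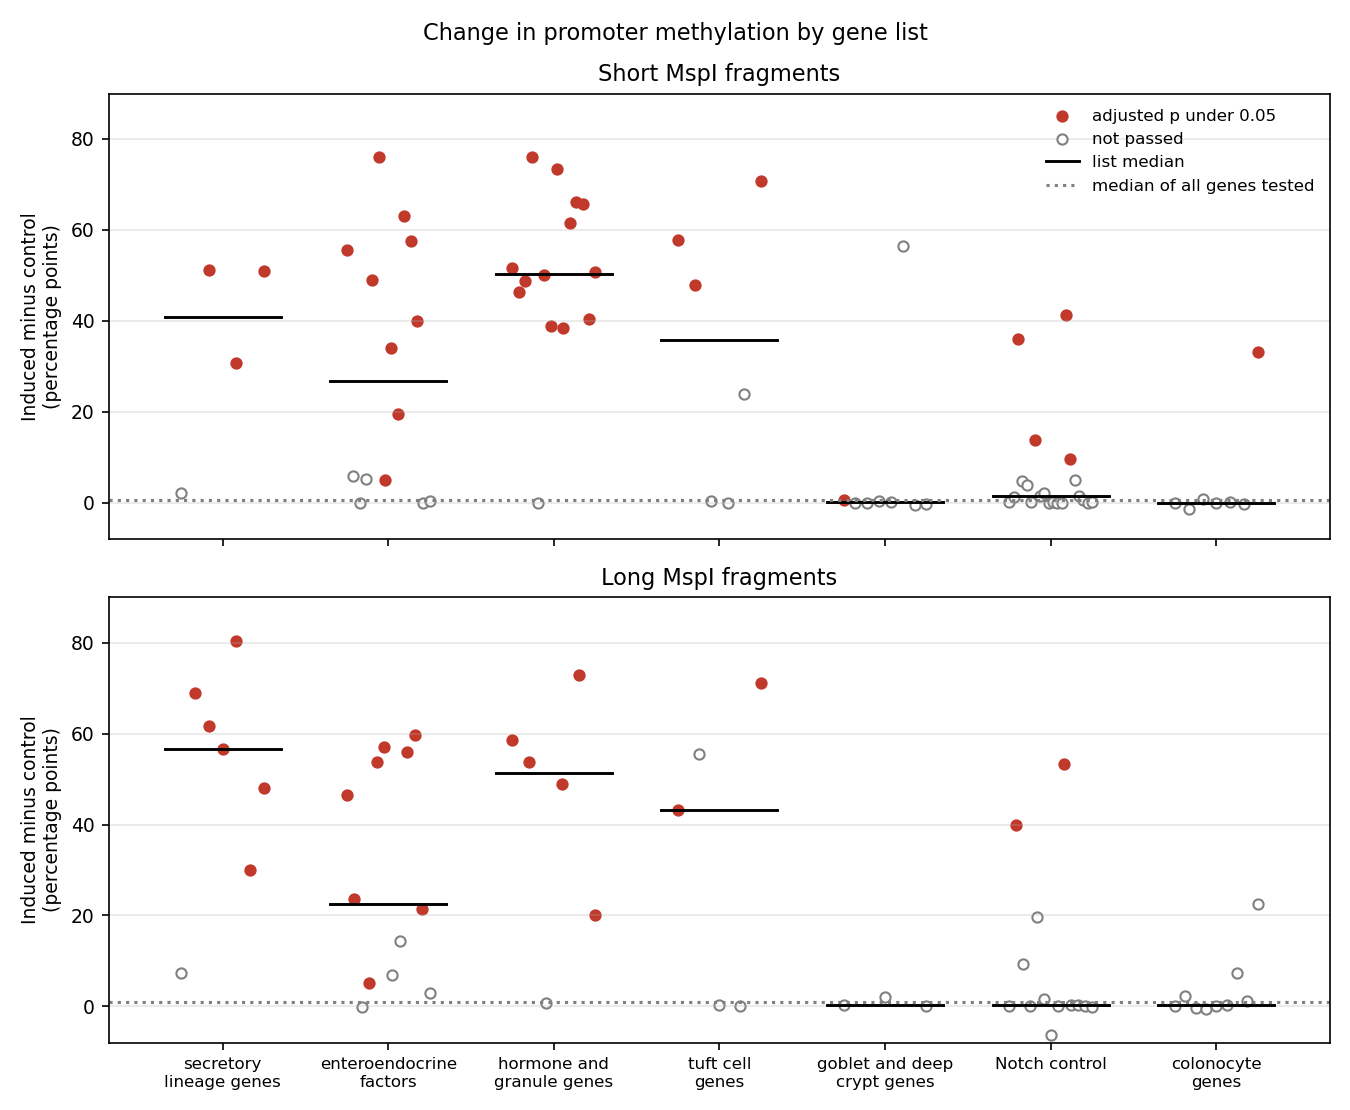
Change in promoter methylation (induced minus control mice, percentage points) of each tested gene by list, short fragments above and long fragments below; red points passed (limma adjusted p under 0.05), open points did not, black lines are list medians and the dotted line the median of all genes tested. Hormone and granule genes have medians of 50.4 and 51.3 points, goblet and deep crypt genes 0.132 and 0.353.

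The genes whose levels were closest to each of the set, by the mean absolute difference over the 6 libraries of a fraction, belonged to varied families. Chga lay 0.997 points from Galnt9 and 1.68 from Gpr139 in the short fraction, and 1.33 from Gata2 and 1.67 from Sim1 in the long. Neurog3 lay 1.46 points from Aif1l and 1.53 from Col19a1 among short fragments, and 2.87 from Fli1 and 3.21 from Jph4 among long fragments. Insm1 lay 1.13 points from Ica1l and 1.36 from Mybl2 among short fragments, and 1.10 from Zic5 and 1.47 from Ptger3 among long fragments. In the long fraction Gfi1 was nearest to Map6d1 and En2 (0.923 and 1.49 points), Chgb to Trpc4 and Rbm24 (2.40 and 2.88 points) and Dclk1 to Dll3 and Dzip1 (5.44 and 5.69 points). Atoh1 lay 0.172 points from Zfhx2 and 0.173 from 2610110G12Rik among short fragments, and 0.643 from 1300007F04Rik and 0.693 from 1600012H06Rik among long fragments. It was the common case: 6831 of 10027 genes lay within 5 points of it in the short and 3908 of 6127 in the long fraction. Chga had 220 and 95 such genes, Neurog3 300 and 45, Insm1 217 and 111, Gfi1 102, Chgb 7 and Dclk1 none in the long fraction.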

How the data were processed

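Each library has 1 deposited table, which per the file headers gives the authors' average CpG methylation fraction (0 to 1) of each gene, used here, beside that of each of its RefSeq promoters. The labels name no aligner, build, promoter window, filter on coverage or conversion rate, and no read counts were used here, so the depth behind a level is unknown and no counting interval can be given; 0% may rest on few reads. Bisulfite levels also read unconverted and hydroxymethylated cytosine as methylation. The short libraries list 10358 to 10838 genes and the long ones 7278 to 8108. At most 2.53% of the values above 0 were equal between 2 libraries of a size class.

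Fractions were multiplied to percent. In each size fraction 3 induced mice were set against 3 control mice in limma 3.58.1 (lmFit, eBayes) in R 4.3.3 on genes listed in all 6 libraries, with Benjamini-Hochberg adjustment over all of them and a threshold of 0.05. Genes in at least 2 libraries of each group were fitted as an alternative, which gives the values of genes outside the first fit. An exact test of 1 gene in 3 against 3 mice cannot go below p = 0.10. The difference between fractions was an interaction in 1 fit over 5309 genes in which the mouse was a random block (within-mouse correlation 0.0674): the design splits each mouse into both fractions, and deviations of its libraries from their group means correlated at 0.198, 0.0559 and 0.394 in induced and 0.294, 0.613 and 0.290 in control mice 1, 2 and 3. The limma scripts were tested on simulated data. Promoter windows are RefSeq's (GRCm38.p6) and were matched by symbol for 8 of 9 genes. Python 3.11.15, numpy 2.4.6, pandas 2.3.3 and matplotlib 3.10.9 were used.

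The genes and lists (181 further entries in 8 lists) were chosen with earlier results of these data known. All 9 genes are named whatever their values; of each list up to 4 genes with the largest absolute change per fraction are the ones to name (those of the epithelial list at or under 2% not all given), and per tested gene the 2 nearest. Bhlha15, Rfx3, Foxa1, Sox4, Sst, Cck, Pam, Sct, Ltc4s, Foxa3, Creb3l1, Epcam, Cdx2, Hes1, and Il17rb and Klf4 in the short fraction, Klf5 in the long, were picked after their values were seen. So were Slc18a1, Pcsk1, Tac1, Car4, Krt19 and Eng, Pdgfra in the short fraction, and Gal and Muc1 in the long. Some genes of the lists that this rule names are counted but not reported here by name.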

Additional observations from a re-analysis of the deposited data

Results flagged for a closer look

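Maml1 (Gene ID 103806), a coactivator of Notch signalling, changed differently in the 2 fractions. It was at 9.97% ± 2.27 in induced and 0.447% ± 0.326 in control mice among short fragments, and at 0.420% ± 0.727 in induced and 0.0633% ± 0.110 in control mice among long fragments (SD, n = 3 each). The change in long minus that in short fragments was -9.17 ± 1.33 points (SE, limma interaction, adjusted p = 0.00451).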

How the results depend on the processing

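Read depth, which the files do not give, limits all levels, above all those near 0% and those of genes listed in few libraries. With 1 library left out the genes tested were kept. Of all genes, the short-fraction rises numbered 1567 of 5309 in 1 fit over both fractions, against 2765 of 10027; the falls, 8, became 21 on the arcsine scale, 2368 after median centring and 4 to 18 with 1 library left out. Median centring moves induced against control libraries by 0.396 and 0.502 points and so turns the many genes near 0 into falls. In the long fraction rises ranged from 882 to 1527 with 1 library left out, and the single fall became 4 in 1 fit over both fractions, 2 on the arcsine scale, 1938 after median centring and 0 to 5 with 1 library left out. Genes whose change was larger in long fragments ranged from 63 to 232, against 140, and those with a smaller one from 59 to 209, against 110, with 1 mouse left out. Chgb in the long fraction ranged from 55.4 to 71.4 points and Dclk1 from 50.6 to 63.2 with 1 library left out. The long-fragment change of Atoh1 ranged from 5.81 to 9.44 points with 1 library left out and passed at 7.42 points in 1 fit over both fractions, 0.235 on the arcsine scale and 6.92 after median centring. The difference between fractions ranged from 4.73 to 6.13 points for Atoh1 and from -2.14 to 1.62 for Insm1, which reversed without induced mouse 1. Signs turned as well for genes near 0 that had not passed. After median centring the long-fragment changes of Il17rb, Klf4 and Xbp1 were -0.248, -0.148 and -0.488. With 1 library left out the long-fragment change ranged from -0.0650 to 0.570 for Klf4, from 0 to 0.0200 for Xbp1 and from -0.0400 to 1.89 for Krt8, and the short-fragment change from -2.17 to 0.172 for Cdh1 and from -0.442 to 0.113 for Lck. 

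Induced and control mice share only a number: same-numbered deviations correlated at 0.0736, 0.00398 and -0.0498 in the short and 0.00102, 0.0366 and 0.0247 in the long fraction, and 2 and 5 of 6 libraries correlated best with their own number. With that number as a replicate block 4 genes fell in the short and 651 rose in the long fraction, and Chgb (61.7 points, adjusted p = 0.0694) and Dclk1 (56.5 points, adjusted p = 0.0921) did not pass in the long fraction. Without the mouse block the fractions differed for 135 genes upward and 105 downward. The cause was not tested.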
